A study of Drosophila melanogaster with 4 samples.

Results

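The Iroquois complex is a group of neighbouring homeobox genes on chromosome arm 3L of Drosophila melanogaster, made up of ara (araucan), caup (caupolican) and mirr (mirror). All 3 encode TALE-class homeodomain transcription factors. GAGA factor (GAF), the product of the gene Trl, was mapped over this locus by ChIP-seq, the sequencing of chromatin fragments pulled down with an antibody, in embryos aged 14 to 16 hours. The locus was taken as the 140 kb of 3L from 12580000 to 12720000 on FlyBase release 5, the build the file headers name, which was selected as the place of ara, caup and mirr in this order of rising coordinate. Every GAF-enriched region with a score above 0 that overlapped this window was a member. There were 4 such regions in the list of ChIP replicate 1, 4 in that of replicate 2 and 4 in the combined list of the replicate set, or 12 of the 17877 enriched regions of the 3 lists. The combined members were 4 of the 1230 combined regions on 3L and of the 6474 on all sequences.

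The embryos were wild-type Oregon-R, grown in population cages, and all groups shared this strain and stage. The series held 2 GAF ChIP libraries and 2 input libraries, which are chromatin sequenced without immunoprecipitation. The inputs were not analysed here, and the depth of the libraries is unknown, because the lists hold no read counts. Each list gives a start, an end and a signed score for every region, and the scale of the score is not stated. Regions were therefore set against other regions within their own list, by rank and by median. Means, SDs and differences of scores across lists take the lists to be on the same scale, which is not stated either. The chromatin came from whole embryos, so binding in more cells and stronger binding per cell cannot be told apart in a score. Whether separate embryo collections lie behind the replicates is not stated, and their spread may therefore be technical.

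ara and caup are close relatives. They are known for setting up the pattern of sensory bristles on the fly's back and of veins in its wing. For the bristles they activate the proneural genes achaete and scute. mirr is known for its part in the dorsal eye and in drawing the boundary between dorsal and ventral eye. ara and caup are expressed in nearly the same pattern and mirr in an overlapping one, and the complex is a known target of Polycomb group repression in flies. GAF carries a BTB domain and a zinc finger, binds GA-rich DNA, and is known from promoters and from Polycomb response elements. In the RefSeq gene table used here, which is on release 6, ara and caup are adjacent, 4 long non-coding RNA genes separate caup from mirr, and SmD1, which encodes a spliceosome protein, is the next gene after mirr. Coordinates were not carried between releases. No region is therefore assigned to ara, caup or mirr below. The window bounds, which the selection gave as release 5, also enclose all 3 genes as the release 6 table places them. If the genes lie at other coordinates on release 5, the bounds may be off by that shift, which would bear on the number of members and on the gaps at the ends. Because of this, the nearest region before the window, which may belong to the locus, is described too.

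GAF occupied the Iroquois window at few places, which were widely spaced and, with 1 exception, high in score among all regions of the arm. The combined list held 2 narrow regions of high score in the early part of the window, then a very weak one and last a broad one. Against combined regions of like width, the 2 narrow regions of high score also stood high, while the weak and the broad one lay below the median. From 108 kb after the window start to its end no region was called in any list.

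**Figure D1:**
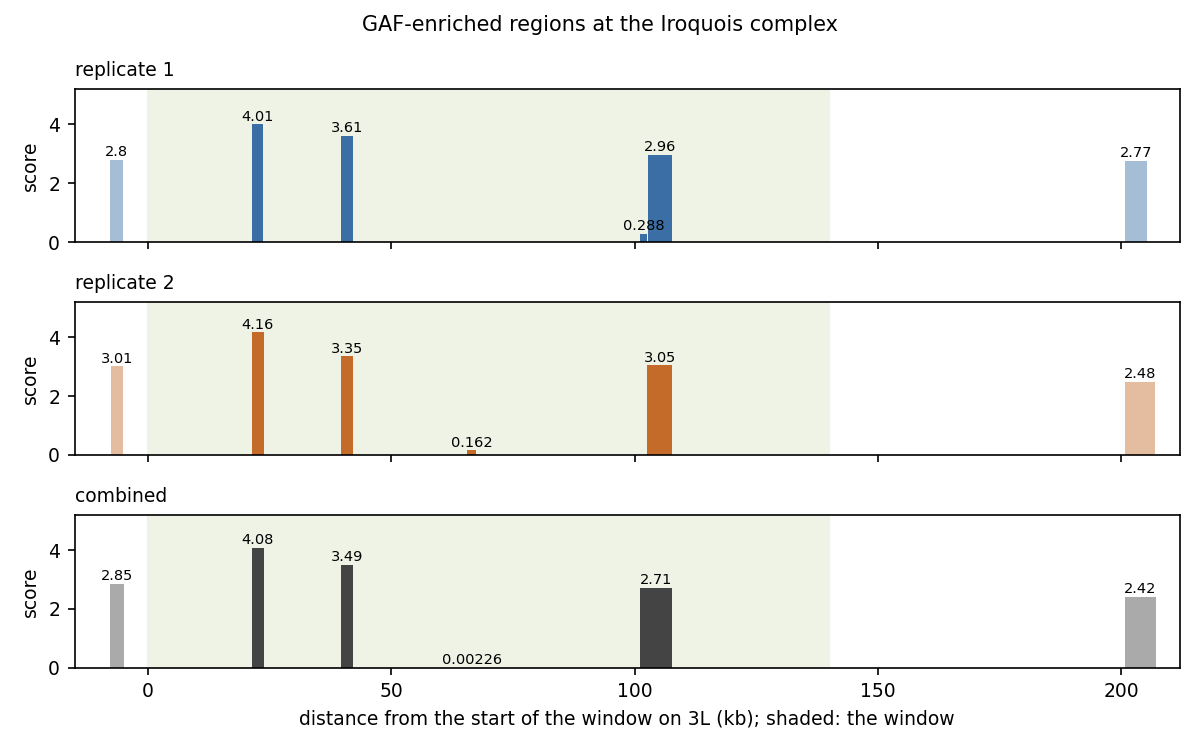
GAF-enriched regions at the Iroquois window in replicate 1, replicate 2 and the combined list. The x axis is the distance from the window start in kb, the width of a bar is the width of the region, and the y axis and the number above each bar give the deposited score. The window is shaded, and paler bars are the nearest regions outside it. Each list shows the same 3 strong places inside the window, and the weak region at 65.7 kb is missing from replicate 1.

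The highest score at the locus belonged to the first region, 3L:12601342-12603794 in the combined list, which was 2453 bp wide and scored 4.08. It scored 4.01 in replicate 1 and 4.16 in replicate 2, or 4.09 ± 0.108 (mean ± SD, n = 2). Only 13 of the other combined regions on 3L scored higher, since its rank was 14 of 1230; its ranks were 30 of 1100 in replicate 1 and 15 of 1118 in replicate 2. Its width was unremarkable, with 62.3% of combined regions on 3L narrower. Among the 244 combined regions of 3L whose width lay within 10% of its own, itself included, the median score was 2.08 and it ranked 3.

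The next region lay 16.0 kb further on, at 3L:12619795-12622082. It was 2288 bp wide and scored 3.49 in the combined list. The replicates gave 3.61 and 3.35, which is 3.48 ± 0.184 (mean ± SD, n = 2). This put it at rank 68 of 1230 combined regions on 3L, and at ranks 65 and 87 in replicates 1 and 2. The first region was above it in each list, by 4.01 against 3.61 in replicate 1 and 4.16 against 3.35 in replicate 2, so the ranges of their replicate scores did not overlap. The 385 combined regions of like width had a median score of 1.40, and it ranked 6 among them.

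The combined region after it, 3L:12645688-12647370, was the weakest. It was 1683 bp wide and scored 0.00226, the second lowest of the 1230 combined regions on 3L, above a single region at 9.79e-05. Replicate 2 had a region there, 3L:12645646-12647369, with a score of 0.162, below which lay 3.22% of the replicate 2 regions of 3L. Replicate 1 had none, and so this member rests on 1 library. On the rest of 3L, 68 combined regions were overlapped by replicate 2 alone, with a median combined score of 0.109, and 91 replicate 2 regions had no counterpart in replicate 1, with a median score of 0.282.

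The last combined region in the window, 3L:12681029-12687759, was the widest at 6731 bp, with 97.9% of combined regions on 3L narrower, and it scored 2.71, at rank 199 of 1230. Against regions of like width it stood lower in the combined list than in the replicates, where its main part was drawn narrower. The 21 combined regions of 3L within 10% of its width, itself included, had a median of 3.06, above its own score, and it ranked 13 among them. The lists differed in how they drew it. Replicate 2 had 1 region of 5190 bp that began 1535 bp after the combined start and scored 3.05. Replicate 1 had 2 regions: one of 1435 bp with a score of 0.288, and, after a gap of 125 bp, one of 5011 bp with a score of 2.96. The larger piece of replicate 1 lay wholly within the region of replicate 2, sharing 5011 bp, while the narrow piece shared 27 bp with it. Both of these large replicate regions scored above the median for their width, which was 2.83 over 54 regions in replicate 1 and 2.70 over 38 in replicate 2. They ranked 23 and 13 in these sets, whose widths lay below those of the combined set. A difference between lists and one between widths cannot be told apart here. The broad part was found at like scores in both replicates, and the first 1.5 kb or so of the combined region was called only in replicate 1, at a low score.

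**Figure D2:**
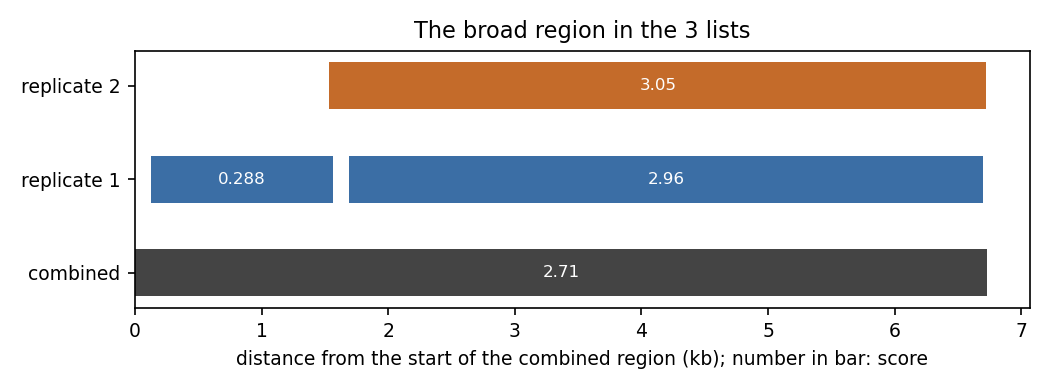
The broad last region as drawn in the combined list, replicate 1 and replicate 2. The x axis is the distance from the start of the combined region in kb, each bar is 1 called region, and the number in a bar is its score. Replicate 1 shows a piece of 0.288 before one of 2.96, where replicate 2 shows a single region of 3.05.

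On the rest of 3L, both replicates overlapped 25 combined regions at least as wide as this one, and 6 of these (24.0%) were likewise in several pieces in 1 replicate and in 1 piece in the other.

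Most of the few members were strong against the arm as a whole. The top 25% of 3L scores was taken as the mark, a choice made after values had been seen. In the combined list 3 of the 4 members lay in it, against 24.9% of the regions on the rest of the arm. In replicate 1 this was 3 of 4 against 24.8%, and in replicate 2 it was 3 of 4 against 24.9%. The member left out was the narrow piece of the broad region in replicate 1, at 0.288, and the weak region in replicate 2, at 0.162. The combined list is of the same replicate set and does not count as a further replicate. The score that marked off this top 25% was 2.27 in the combined list, 2.36 in replicate 1 and 2.43 in replicate 2. The mark takes no account of width. The broad member, at 2.71 in the combined list, passed it but lay below the median of 3.06 for its width. Its large regions in the replicates lay above the medians for theirs. The median score of the members was 3.10 in the combined list, against 1.13 on the rest of 3L (quartiles 0.388 and 2.25). In the replicates the medians were 3.29 and 3.20, or 3.24 ± 0.0627 (mean ± SD, n = 2), against 1.37 and 1.39 on the rest of 3L, or 1.38 ± 0.0150. No test was made, since regions of 1 locus are not replicates, and a median over 4 regions can lie far from that of the arm.

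Set against the 173 other windows of the same length that tile 3L around the locus, the Iroquois window stood near the top in median score and below the middle in number of regions. Of these 173 windows, 1 had a higher median score in the combined list, 3 in replicate 1 and 1 in replicate 2. The median over the other windows that held a region was 1.14, 1.34 and 1.37 in the same order. The score of the best region in each window told it apart less: 12 other windows had a higher top score in the combined list, 25 in replicate 1 and 14 in replicate 2. Other windows also had many regions of the top 25%, with 44 of the 173 holding 3 or more of them in the combined list. Of the 158 other windows with at least 3 combined regions, 2 had 75.0% or more of them in the top 25%, as the Iroquois window had. The corresponding numbers were 1 of 149 windows in replicate 1 and 2 of 145 in replicate 2.

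**Figure D3:**
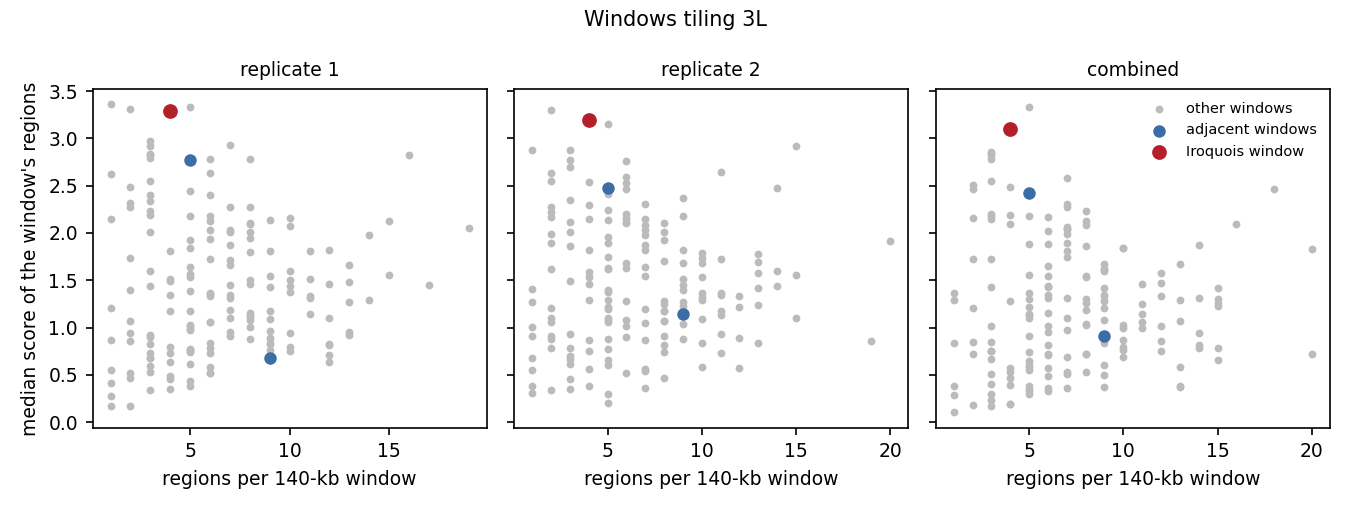
Each point is a 140-kb window of 3L that holds at least 1 region, with the number of regions on the x axis and their median score on the y axis, for replicate 1, replicate 2 and the combined list. The Iroquois window, with 4 regions and medians of 3.29, 3.20 and 3.10, lies near the upper edge in each panel, and the adjacent windows are marked.

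In number, 4 combined regions made 28.6 per Mb, against 50.2 per Mb on the rest of 3L, a ratio of 0.569. Both replicates also had 4 regions, though not at the same places, since replicate 1 lacked the weak region and had the broad one in 2 pieces. The rates of the replicates on the rest of 3L were 44.9 and 45.6 per Mb, giving ratios of 0.636 and 0.626. The other windows held between 0 and 20 combined regions with a median of 7.00. Fewer than 4 were found in 36 of them, exactly 4 in 10 and more in 127, so the number was low but not unusual. Other windows with fewer regions numbered 46 in replicate 1 and 43 in replicate 2, where the median was 6.00 in each. The neighbouring windows differed from the locus in different ways. The window before it held 9 combined regions with a median score of 0.909, and the one after it held 5 with a median of 2.42. Their best scores were 3.38 and 3.26, below the 4.08 of the Iroquois window.

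Members covered 13.2 kb, or 9.40%, of the window in the combined list, against 13.3% of the rest of 3L. In the replicates coverage was 7.96% and 8.31%, or 8.14% ± 0.246 (SD, n = 2), against 12.1% and 12.3%. Of the 173 other windows, 68 were covered less in the combined list, so coverage was not far from the middle of the arm. Widths were also ordinary apart from the broad region. The median was 2370 bp in the combined list, with a range from 1683 to 6731 bp, against a median of 2219 bp and quartiles of 1982 and 3058 bp on the rest of 3L. It was 2352 bp in replicate 1 and 2362 bp in replicate 2, against 2230 and 2234 bp.

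The median gap between members was longer than that of the arm in each list. The 3 gaps between combined members measured 16.0, 23.6 and 33.7 kb, a median of 23605 bp against 8548 bp on the rest of 3L, where the quartiles were 2817 and 21284 bp. In replicate 2 the gaps were 16.0, 23.6 and 35.2 kb, a median of 23566 bp against 9394 bp on the rest of 3L. In replicate 1, which lacked the weak region and had the broad one in 2 pieces, they were 16.0 kb, 59.1 kb and 125 bp, a median of 16023 bp against 9882 bp. Without replicate 2 the contrast with the arm was therefore smaller. All 4 combined members had at least 10 kb free on both sides, as had 23.3% of combined regions on the rest of 3L. The count was 4 of 4 in replicate 2, against 26.8%, and 2 of 4 in replicate 1, against 27.6%, where the pieces of the broad region adjoined each other.

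On the side of rising coordinate, the members were followed by a long stretch without GAF regions. After the broad region no region was called for 92.9 kb in the combined list, the gap ranked 30 of the 1229 on 3L. The same stretch measured 93.0 kb in replicate 1 and 92.9 kb in replicate 2. It began inside the window and ended 60.7 kb beyond it, at 3L:12780692-12787046, a region of 6355 bp that scored 2.42 in the combined list, 2.77 in replicate 1 and 2.48 in replicate 2.

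No such stretch lay before the first member, where the gap of 26.3 kb ranked 233 of 1229 and was shorter than the longest gap between members. The nearest region on that side lay 4.96 kb before the window start, at 3L:12572338-12575040. It was 2703 bp wide and scored 2.85 in the combined list, at rank 173 of 1230. The replicates gave 2.80 and 3.01, or 2.90 ± 0.145 (mean ± SD, n = 2). A gap of 62.2 kb lay before it, ranked 68 of 1229. With it counted, which extending the window by 20 kb on each side does, there were 5 combined regions at 27.8 per Mb with a median score of 2.85. In both replicates there were then also 5, with median scores of 2.96 and 3.05.

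By the mark of 10 kb, isolated regions on the rest of 3L had no higher median score than all regions there. Other marks are not given, and the centromere end was not left out. The 286 combined regions on the rest of 3L with at least 10 kb free on both sides had a median score of 1.06 (quartiles 0.459 and 2.23), and 71 of them (24.8%) lay in the top 25% of the arm, close to the share among all regions. Of these 286, 2 scored above the first Iroquois region, 13 above the second and 49 above the broad one. In replicate 2 the corresponding numbers were 2, 22 and 35 of 299. In replicate 1, where 2 members were isolated by this mark, 6 of 302 scored above the first and 14 above the second.

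**Figure D4:**
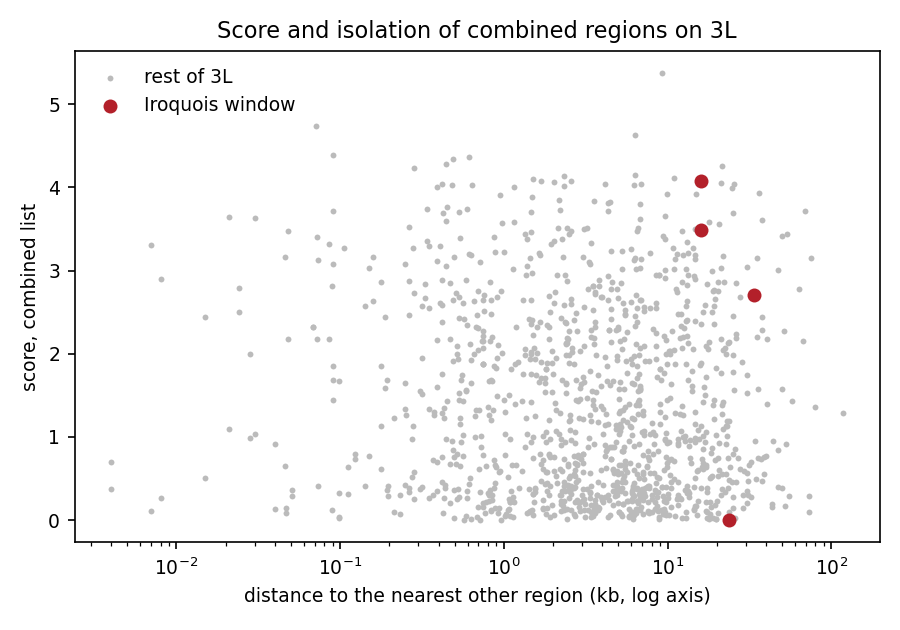
Each point is a combined region on 3L, with the distance to the nearest other region in kb on a log x axis and its score on the y axis. The 4 regions of the Iroquois window lie at 16.0 kb or more, with scores of 4.08, 3.49, 2.71 and 0.00226.

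Replicates drew the 2 narrow strong regions almost identically. At the first region the starts of the replicates differed by 3 bp and the ends by 9 bp, and 99.5% of their joint span was shared. At the second the differences were 3 and 4 bp, with 99.7% shared. Over the 1008 regions paired 1 to 1 on the rest of 3L, the median shift was 27.0 bp at the start and 28.0 bp at the end. The median share of their joint span was 97.4%, and 94.5% and 98.2% of these pairs shared less than the first and the second Iroquois pair. These reference pairs span all scores and widths, and whether pairs of like score share as much was not tested. The scores of the 2 Iroquois pairs differed between replicates by an ordinary amount. Replicate 2 minus replicate 1 was 0.153 at the first and -0.261 at the second, and the within-region SD over both was 0.151, against 0.192 over the pairs on the rest of the arm. The combined score lay close to the mean of the replicates, with a difference, combined minus mean, of -0.009 at the first region and 0.010 at the second. On the rest of 3L the median of this difference was -0.015 over 987 regions. The combined list is of the same replicate set, so this closeness is no separate evidence of agreement. The other members were not paired 1 to 1. The broad one scored 2.71 in the combined list, below its large regions in the replicates at 2.96 and 3.05. The weak one scored 0.00226 there and 0.162 in replicate 2.

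**Figure D5:**
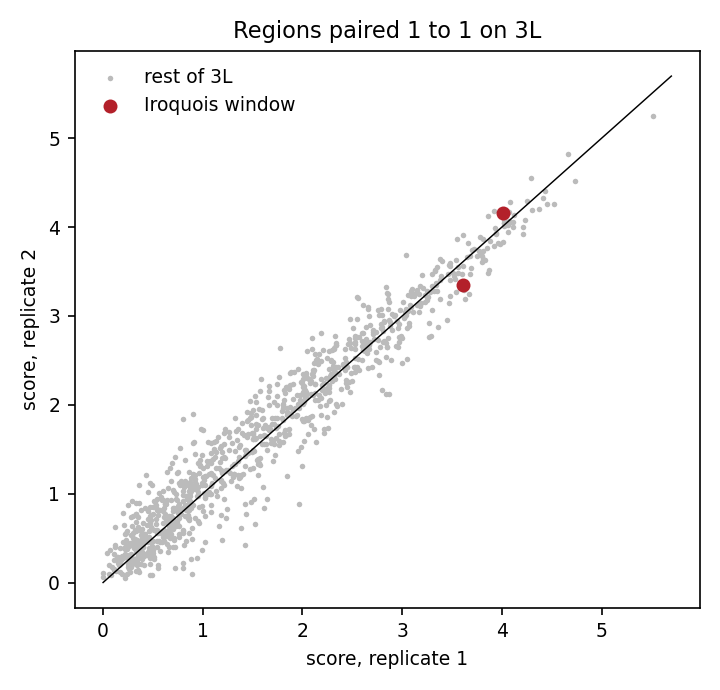
Scores of regions paired 1 to 1 between the replicates on 3L, replicate 1 on the x axis and replicate 2 on the y axis, with the line of equal scores. The 2 pairs of the Iroquois window, at 4.01 and 4.16 and at 3.61 and 3.35, lie on either side of the line near its upper end.

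Counted over members, both replicates overlapped 3 of the 4 combined regions by at least 1 shared bp. On the rest of 3L this share was 82.4% (1010 of 1226, exact 95% binomial interval 80.1 to 84.5%, counting error only). All 4 regions of replicate 1 overlapped one of replicate 2, against 93.9% on the rest of 3L, and 3 of 4 regions of replicate 2 overlapped one of replicate 1, against 91.8%. With 4 members a share of 75.0% differs from a full one by a single region, and no more than that can be read from these shares. Counted over bases, the replicates shared less at the locus than elsewhere. Regions of either replicate covered 13.0 kb of the window, and 9.74 kb of it, or 74.7%, were covered in both, against 86.5% on the rest of 3L. The weak region of replicate 2 made up 1724 bp of the unshared sequence and the narrow piece of replicate 1 made up 1408 bp. All else that was not shared came to 171 bp, so apart from these low-scoring calls the replicates covered nearly the same bases.

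No depleted region, taken as one with a score not above 0, lay in the window in any list. On all of 3L there were 44 in the combined list, 3 in replicate 1 and 1 in replicate 2.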

How the data were processed

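GAF ChIP-seq was analysed from 3 deposited region lists, 1 for each of 2 ChIP replicates and 1 for the replicate set. Reads were aligned with Bowtie 0.12.7, per the submitters' processing notes, and coordinates are on FlyBase release 5, per the file headers. How regions were called, by what threshold, and how the authors computed the deposited score and combined replicates is not given in the sources used here. Depth is unknown, so no counting error is given for single regions. Replicate numbers follow the sample titles. The 2 inputs were not analysed here.

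Regions were selected by overlap with the window, ranked within their list on 3L, and compared with the rest of the arm and with windows of equal length tiled outwards from the locus, dropping partial ones at the arm ends. Overlap meant 1 shared bp. A gap was the sequence between neighbouring regions of a list. The mark of 10 kb for isolation, the widths within 10% and the top 25% of scores were chosen after values had been seen. No tests were made. Routines were tested on simulated regions with known overlaps and gaps (Python 3.11.15, numpy 2.4.6, scipy 1.17.1, matplotlib 3.10.9). The window, its members and the comparisons were chosen with earlier results of these data known. Named genes were limited to ara, caup, mirr and related lists, and all members were described. Alternatives were each replicate alone, a score threshold, window edges, a shifted tiling, a stricter overlap and a shorter arm. The planned count of GAGAG in promoters, for the members and for 3 related gene lists, was not made, since no sequences were used here.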

Additional observations from a re-analysis of the deposited data

How the results depend on the processing

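The window held 3 to 5 combined regions under every alternative run, its density stayed below that of the rest of 3L and its median score stayed above. With regions below the median score of the list left out, the density ratio of window to rest was 0.834, coverage 8.19%, the median score 3.49 (1.29 above the rest), the median width 2453 bp and the median gap 37473 bp, and both replicates overlapped 100% of the combined regions. With the window extended by 20 kb on each side these were 0.552, 8.81%, 2.85 (1.72 above the rest) and 2453 bp. Leaving the last 2 Mb of 3L, at its centromere end, out of the rest gave a ratio of 0.548. With the list of 1 replicate alone, the ratio ranged from 0.626 to 0.636, coverage from 7.96% to 8.31%, the median score from 3.20 to 3.29 (1.81 to 1.92 above the rest), the median width from 2352 to 2362 bp, the median gap from 16023 to 23566 bp, and other windows with a higher median score from 1 to 3. Counting only regions wholly inside the window changed none of these values. The score threshold moved the density ratio from 0.569 to 0.834, still below 1. By design it leaves out every region below the median of its list, which was 1 of the 4 combined members. On the side of the window the shift therefore rests on a single region. A tiling moved by 70 kb left 1 other window with a higher median score and the window at rank 27 of 173 from the fewest regions, against 37 of 174. A reciprocal overlap of 50% took the replicate 1 regions overlapped by replicate 2 from 4 of 4 to 3 of 4, through the narrow piece of the broad region, and left the other shares at 3 of 4. The count of GAGAG and GAGAGAG in promoters was not run. No paired analysis was possible because the results come from region lists of the ChIP replicates, without a test, and the inputs have no list here. With 4 members, every median and share rests on few regions, and unknown depth limits what can be read from the weak region.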
